A study of Mus musculus with 18 samples.

Results

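Cytosolic ribosomal protein genes were described in 18 RNA-seq libraries of mouse oocytes. The genes were chosen by symbol (Rpl or Rps followed by a number, the stalk proteins Rplp0, Rplp1 and Rplp2, and Rpsa, with or without a paralog ending such as l, l1 or al). The rule itself used no measured value, but it was set with earlier results of these data known. This gave 87 genes among the 28252 genes with a value in TPM (transcript abundance scaled for gene length and library total), and each of them was also found by identifier in the table of read counts, which lists 53715 genes. Of the 87, 83 are annotated as protein coding in GENCODE M21 (GRCm38), and 4 (Rpl6l, Rpl32l, Rps4l and Rps12l1) are annotated as processed pseudogenes although their symbols follow the same pattern.

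The cytosolic ribosome is built from a small subunit, whose proteins carry the prefix Rps, and a large subunit, whose proteins carry the prefix Rpl. The acidic stalk proteins Rplp0, Rplp1 and Rplp2 stand on the large subunit and bring in the translation factors. Most ribosomal protein mRNAs begin with a C followed by a run of C and T bases, the 5′ terminal oligopyrimidine (TOP) start, through which mTORC1 and Larp1 control their translation. Growing oocytes build up a store of ribosomes, and a fully grown oocyte arrested at metaphase II (MII) does not transcribe and lives on stored mRNA.

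All mice were C57Bl/6j x CBA/J F1 hybrids, and the 18 libraries formed 6 groups of 3. Oocytes of primordial follicles (within flattened pregranulosa cells) and of primary follicles (within 1 layer of cuboidal granulosa cells) were cut by laser capture microdissection (LCM) from sections of fixed, paraffin-embedded ovaries. Their in vivo groups came from ovaries of 14-day-old mice that were not cultured, and their in vitro groups from ovaries of 7-day-old mice that were cultured whole for 7 days. The in vivo MII oocytes came from superovulated adult mice, and the in vitro MII oocytes from ovaries of 7-day-old mice cultured for 7 days, whose secondary follicles were then isolated, grown in alginate for 12 days and triggered with hCG. Each MII library was made from 10 oocytes, whereas RNA from the LCM caps of the same stage was pooled at extraction. The in vivo and in vitro MII groups therefore also differ in the age of the mice. Nothing states that the 3 libraries of a group, LCM or MII, came from separate animals. The p-values therefore measure the spread between the libraries of a group, which may be technical.

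LCM libraries were amplified from fixed tissue and enriched with exome capture probes (Ovation PICO SL WTA V2, TruSeq RNA Access), and MII libraries were made by Smart-seq II. Differences between LCM and MII oocytes cannot be told apart from differences between these preparations. Levels of the 2 kinds of library are therefore set side by side without a test. In bulk RNA, fewer transcripts in each cell and fewer cells of a type cannot be told apart either.

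An LCM library held 15149564 to 29205503 counts and an MII library 7334817 to 9978830, so that 3 counts, taken as the detection floor, equal 0.103 to 0.198 CPM (counts relative to the total of the library) in LCM and 0.301 to 0.409 CPM in MII oocytes. The libraries carry no molecular identifiers, and these floors cover counting error only. Primary in vivo replicate 1 stood apart among the LCM libraries, with 4842 genes over 3 counts against 5703 to 11710 in the other LCM libraries. Oocyte markers (14 genes, summed) reached 215 to 1445 CPM in LCM oocytes, against 8269 to 14268 CPM in MII oocytes, where Gdf9 (42702 to 104999 counts) and Oosp1 (13011 to 17636 counts) had the highest counts of the list in every library. Of the 14, 11 had a higher mean TPM in MII than in LCM oocytes, and Ddx4, Kit and Figla did not. Granulosa markers (12 genes, summed) reached 19.8 to 2954 CPM in the LCM libraries, with Fshr at 0 counts in all 12. They reached 62.7 to 130 CPM in the MII libraries, with Foxl2, Fst and Amhr2 at 0 in all 6. Other genes of the list did have MII counts. Cyp19a1 had 334 to 1039 counts in MII and at most 7 in LCM libraries. Nr5a2 had 82 to 233, Kitl 27 to 167 and Fshr 0 to 47 counts in MII libraries. Stroma and theca markers (9 genes, summed) reached 959 to 27346 CPM in LCM oocytes, against 2.68 to 15.4 CPM in MII oocytes, where Col1a2, Col3a1, Lum and Cyp17a1 had no count. Endothelial markers (4 genes) summed to at most 831 CPM and blood and immune markers (6 genes) to at most 1661 CPM in the LCM libraries, both with 1 or more libraries under 1 CPM. In the MII libraries they summed to 119 to 230 CPM and to at most 5.51 CPM. Of the endothelial markers, Pecam1 had 654 to 2105 counts in MII libraries, and Cdh5 had none. The part of these other cell types in the ribosomal protein levels was not tested.

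The RNA starts of some of the genes that the results below turn on are shown first, because TOP starts are the sequence feature these mRNAs are known for and because the genes of some paralog pairs were found in different kinds of library. The sequences are the 20 bases before and the 20 bases from the RefSeq start on GRCm38.p6, written 5′ to 3′ on the strand of the gene. Capitals mark the start base and, where the start base is a C followed by at least 4 bases that are C or T, the whole run.
Rps27: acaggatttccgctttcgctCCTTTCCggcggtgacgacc
Rps27l: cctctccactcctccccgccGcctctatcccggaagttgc
Rpl39: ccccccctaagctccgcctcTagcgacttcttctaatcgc
Rpl39l: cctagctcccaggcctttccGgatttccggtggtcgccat
Rpl22: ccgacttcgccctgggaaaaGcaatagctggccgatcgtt
Rpl22l1: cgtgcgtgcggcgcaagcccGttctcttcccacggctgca
Rps15a: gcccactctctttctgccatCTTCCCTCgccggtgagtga
Rpl15: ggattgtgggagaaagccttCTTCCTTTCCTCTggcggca
Rplp2: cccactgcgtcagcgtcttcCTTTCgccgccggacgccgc
Rpl7a: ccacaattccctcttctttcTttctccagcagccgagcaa

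These windows lie at chr3:90213629-90213668 on the minus strand for Rps27 and chr9:66946066-66946105 on the plus strand for Rps27l. Those of Rpl39 (chrX:37085203-37085242, minus strand) and Rpl39l (chr16:10170208-10170247, plus strand) lie on different chromosomes, as do those of Rpl22 (chr4:152325706-152325745, plus strand) and Rpl22l1 (chr3:28805488-28805527, plus strand). Those of Rps15a (chr7:118116128-118116167, minus strand), Rpl15 (chr14:18270967-18271006, minus strand), Rplp2 (chr7:141447631-141447670, plus strand) and Rpl7a (chr2:26910787-26910826, plus strand) complete the set. RefSeq start sequences were found for 64 of the 87 genes. A C followed by at least 4 C or T bases stood exactly at a listed start of 14 of these 64 genes (21.9%), against 3.01% of the 27025 genes of the whole table, both read on the gene's own strand. Annotated starts can lie away from the true one. The RefSeq start lay 405, 281, 180 and 72 bases from the GENCODE gene start for Rpl15, Rplp2, Rpl39 and Rpl22l1. For the other genes shown it lay 0 to 43 bases away. In Rpl7a, C and T bases run on both sides of the annotated start. No match therefore says only that these letters do not stand at that base.

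The ribosomal protein genes took a large share of the LCM libraries and a small share of the MII libraries. Primordial in vivo libraries gave 3.95%, 2.98% and 3.33% of all counts to the 87 genes, and primordial in vitro libraries gave 5.25%, 2.43% and 3.60%. Primary in vivo libraries gave 2.65%, 4.36% and 2.87%, and primary in vitro libraries 4.04%, 3.93% and 5.56%. The ranges of the primordial groups overlapped, as did those of the primary groups. MII in vivo libraries gave 0.0689%, 0.178% and 0.150%, and MII in vitro libraries 0.0704%, 0.0957% and 0.111%, and these groups overlapped too. The mean share was 3.42% ± 0.492 (SD, n = 3) in primordial in vivo and 3.76% ± 1.42 (SD, n = 3) in primordial in vitro oocytes. It was 3.29% ± 0.928 (SD, n = 3) in primary in vivo, 4.51% ± 0.912 (SD, n = 3) in primary in vitro, 0.132% ± 0.0568 (SD, n = 3) in MII in vivo and 0.0922% ± 0.0203 (SD, n = 3) in MII in vitro oocytes. Every LCM library lay above every MII library. On the TPM scale, which divides by gene length, the LCM shares lay between 5.62% and 11.5% and the MII shares between 0.115% and 0.293%.

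**Figure D1:**
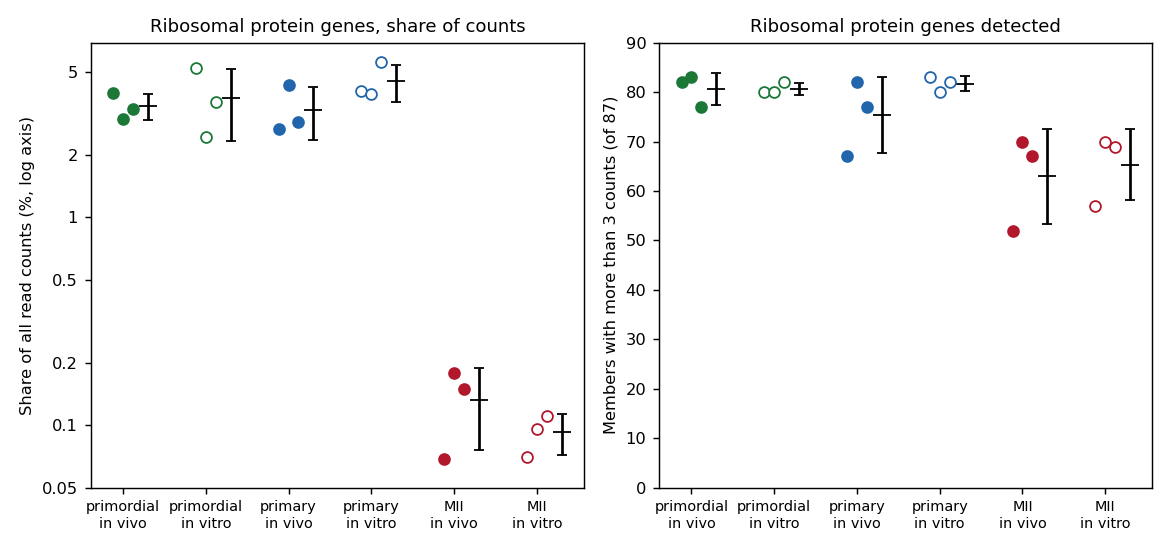
Left, percent of all read counts that fell on the 87 ribosomal protein genes in each library (log axis); right, number of the 87 genes with more than 3 counts. Points are libraries (filled in vivo, open in vitro) and the bars beside them give the mean ± SD of the 3 libraries of a group; the 12 LCM libraries lie between 2.43% and 5.56% and the 6 MII libraries between 0.0689% and 0.178%.

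Most members were found in most libraries. Between 67 and 83 of the 87 genes had more than 3 counts in LCM libraries, with the 67 in primary in vivo replicate 1, and between 52 and 70 did so in MII libraries, with the 52 in MII in vivo replicate 1. Of all genes, 4842 to 11710 stood over the same floor in LCM and 13238 to 15488 in MII libraries, so each MII library held more genes than any LCM library. The numbers of ribosomal protein genes overlapped through primary in vivo replicate 1, and the other LCM libraries held 77 to 83. In every LCM library 61 of the 87 genes were over the floor, and in every MII library 44. All 87 genes had a count in at least 1 LCM library, whereas Rpl3l, Rpl32l and Rps12l1 had none in any MII library. With 0 counts of 7334817 to 9978830, a level up to the floor of each library is allowed.

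Within the LCM groups, some ribosomal protein genes were missing from single libraries. Of the members with at least 100 counts in some library of the group, 3 counts or fewer were found in another library of that group for 5 of 81 in primordial in vivo (6.17%, against 45.0% of all genes with 100 counts), 5 of 82 in primordial in vitro (6.10% against 51.4%), 17 of 79 in primary in vivo (21.5% against 60.1%) and 2 of 81 in primary in vitro oocytes (2.47% against 29.0%). Without primary in vivo replicate 1 the count of that group was 4 of 77 (5.19% against 32.3%). The 17 genes had 10 symbols starting with Rpl and 7 starting with Rps. Examples lost from that library are Rps14 (0, 4924 and 4078 counts) and Rps26 (0, 313 and 115 counts) of the small subunit and Rpl37a (1, 6700 and 1667 counts) of the large subunit. The same library gave 122563 counts to Rpl36a, 18.1% of its ribosomal protein counts, while primary in vivo replicate 3 gave that gene 7. In the MII groups no member went from 100 counts to 3 or fewer, of 26 in vivo and 22 in vitro, and 0.864% and 0.432% of all genes did. These percentages are descriptions with no test, since the members are counted more deeply than most genes.

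The order of the genes by level was different in the 2 kinds of library. Over the 87 genes, Spearman's rho of TPM between 2 LCM libraries had a median of 0.778 within a group and 0.814 between groups, and between 2 MII libraries 0.889 within and 0.836 between groups. Between an LCM and an MII library the median was 0.160, with a range of 0.0473 to 0.256 over 72 pairs. These correlations run across genes of the same libraries, and genes are not independent replicates. The median over the members of their mean TPM was 360 in LCM and 2.996 in MII oocytes. For 42 genes (48.3%) all 12 LCM values lay above all 6 MII values, which held for 1.25% of all genes with TPM values. The reverse held for 1 gene (1.15%), Rps27l, against 14.7% of all genes.

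The large subunit genes Rpl32, Rpl17, Rpl19 and Rpl23a and the small subunit gene Rps4x led the LCM libraries. Rpl32 had 1305, 8689 and 24230 TPM as lowest, median and highest of the 12 libraries, Rpl17 had 648, 6854 and 10976 TPM, and Rpl19 had 221, 4947 and 14672 TPM. Rpl23a, which lies by the exit of the tunnel for the nascent chain, had 29.9, 4316 and 8546 TPM, and the X-linked Rps4x had 1087, 4861 and 5773 TPM. Single libraries thus differed by more than the medians of these genes did from each other. At the low end stood Rpl3l, Rps12l1 and Rpl39l, each with a median of 0 and with highest values of 1.98, 2.18 and 10.8 TPM.

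The MII libraries were led by Rps27l, a paralog of Rps27, at 504, 918 and 1207 TPM as lowest, median and highest of the 6 libraries. Rpl4, which lines the exit tunnel, had 51.6, 83.8 and 154 TPM, Rpl15 48.9, 87.5 and 102 TPM, and the stalk base protein Rplp0 44.9, 82.8 and 113 TPM. Rps27l had the highest TPM of all members in each of the 6 libraries, and the ranges of Rpl4, Rpl15 and Rplp0 overlapped. The 5 leading genes took 54.0% to 64.8% of the ribosomal protein counts of an MII library and 25.7% to 41.5% of those of an LCM library. Rps27l alone held 2666, 2048 and 2782 counts in vivo and 1739, 2634 and 3212 in vitro. At the low end, Rpl32l, Rpl3l and Rps12l1 had no count, and the large subunit genes Rpl12 (0 to 1 counts) and Rpl9 (0 to 5 counts) were at or near the floor although their LCM medians were 214 and 1168 TPM.

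**Figure D2:**
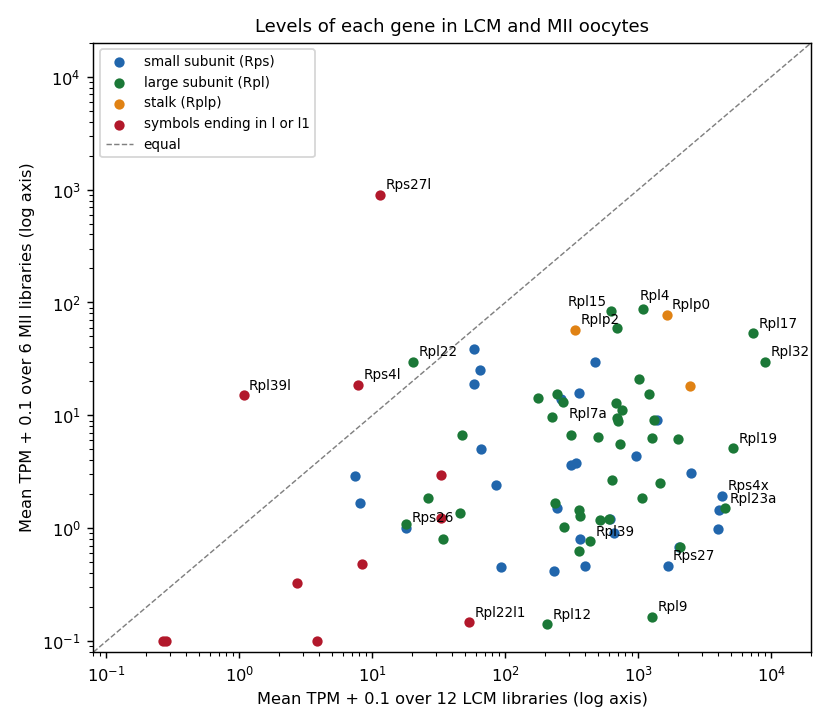
Mean TPM + 0.1 of 85 of the 87 genes over the 12 LCM libraries (x, log axis) and over the 6 MII libraries (y, log axis), coloured by subunit. Of the genes plotted, 4 lie above the dashed line of equal level (Rps27l, Rpl22, Rpl39l and Rps4l) and 81 below it.

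By class, the 30 small subunit genes (paralogs left out) had a median of mean TPM of 349 in LCM and 2.57 in MII oocytes, and the 43 large subunit genes 618 and 6.07. All 3 stalk genes were over the floor in every library. Rplp0 held 1305 to 45777 counts in LCM and 304 to 560 in MII libraries, Rplp1 2949 to 22858 and 14 to 54, and Rplp2 942 to 10261 and 141 to 671. Mean TPM was 1633 ± 1234, 2444 ± 1308 and 336 ± 175 (SD, n = 12) for Rplp0, Rplp1 and Rplp2 in LCM oocytes and 77.6 ± 25.4, 18.03 ± 12.9 and 57.1 ± 35.7 (SD, n = 6) in MII oocytes. By mean, Rplp1 was the highest of the 3 in LCM oocytes, where its range overlapped that of Rplp0, and the lowest in MII oocytes.

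Members with roles of their own followed the same pattern of levels. Rps6, the target of the S6 kinases, had 28.4, 49.8 and 187 TPM as lowest, median and highest in LCM oocytes. In the MII libraries Rps6 had 1.77 to 14.4 TPM (10 to 68 counts). Rpl5 and Rpl11, which with 5S rRNA bind Mdm2 and so tie ribosome assembly to p53, had medians of 447 and 1180 TPM in LCM oocytes and of 6.67 and 4.34 TPM in MII oocytes. Rpsa, also known as the laminin receptor precursor, had 23761 to 66077 counts in LCM libraries and 0, 18 and 9 counts in vivo and 1, 3 and 4 in vitro in the MII libraries, a rank of 11 of 87 in LCM and 73 of 87 in MII oocytes. Ribosomal proteins with other symbols were not all alike. Rack1, the scaffold on the small subunit, had a mean of 360 TPM in LCM and 57.5 TPM in MII oocytes, and Fau, which encodes the small subunit protein S30 behind a ubiquitin-like part, 1880 and 25.4 TPM.

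**Figure D3:**
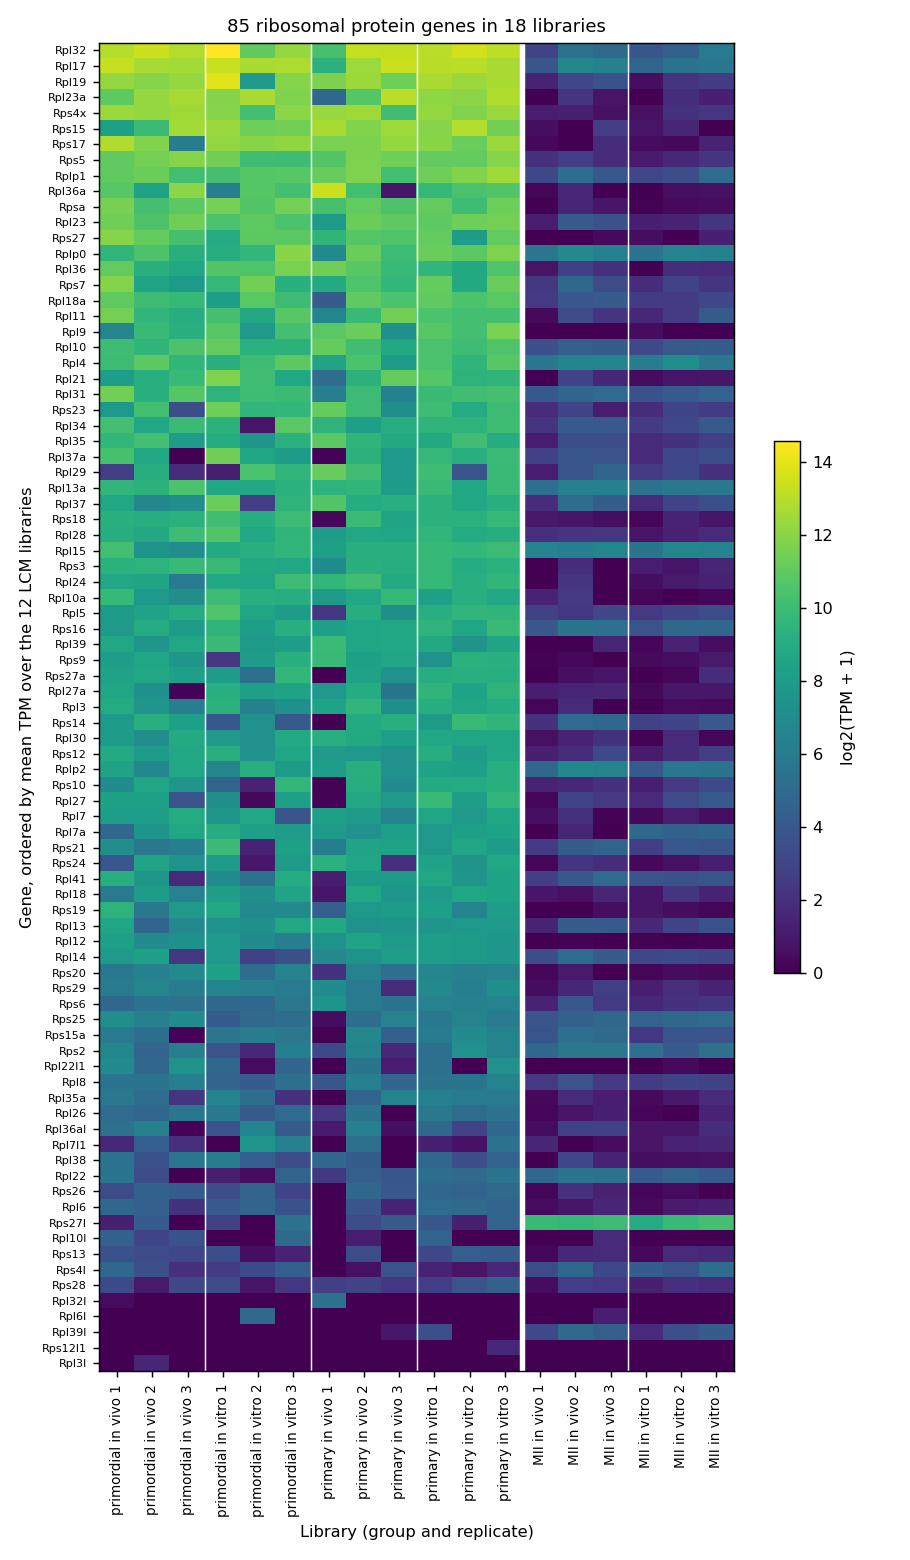
log2(TPM + 1) of 85 of the 87 genes (rows, ordered by mean TPM over the LCM libraries) in the 18 libraries (columns, by group and replicate). The rows darken from LCM to MII for most genes, Rps27l near the bottom brightens, and dark cells inside the LCM block are genes missing from single libraries, most often in primary in vivo replicate 1.

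Paralog pairs held different shares in the 2 kinds of library. Rps27 had 27640, 16144 and 9536 counts in primordial in vivo, 2409, 16922 and 12633 in primordial in vitro, 5289, 12773 and 7984 in primary in vivo and 15164, 2038 and 17753 in primary in vitro libraries, and 0, 0 and 1 in MII in vivo and 2, 0 and 5 in MII in vitro libraries. Rps27l held at most 2.34% of the TPM of the pair in the 12 LCM libraries, with 0 to 237 counts, and at least 99.9% in the 6 MII libraries. The 2 kinds of library did not overlap for either gene. Rps27l overlaps no other gene in the annotation, and no near-identical copy of its coding sequence was found.

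Rpl39l, a paralog of Rpl39 best known from male germ cells, had counts in 2 of the 12 LCM libraries (4 and 62) and 25, 78 and 56 counts in MII in vivo and 8, 31 and 48 in MII in vitro libraries. Rpl39 had 1992 to 9766 counts in LCM and 0 to 9 in MII libraries. Rpl39l held 86.99% to 100% of the TPM of this pair in MII oocytes and at most 2.28% in LCM oocytes. For Rpl22 and Rpl22l1 the shares depended on a pseudogene. Without it, Rpl22l1 held a median of 61.1% of the TPM of the pair in the LCM libraries, with a range from 0% to 100%, and at most 1.20% in the MII libraries, where it had 0 to 2 counts. Gm15421, a near-identical copy of Rpl22l1, had 394, 170 and 240 counts in MII in vivo and 700, 1090 and 552 in MII in vitro libraries. As a share of counts instead of TPM, still without copies, Rpl22l1 held a median of 52.1% in LCM libraries and at most 0.826% in MII libraries. The counts of near-identical copies were then added to each gene, an alternative chosen after seeing the data. With them, Rpl22l1 held 28.8% to 82.0% of the counts of the pair in MII libraries (median 66.8%, over 50% in 4 of 6). In LCM libraries it held 0% to 100% of these counts (median 61.8%). The direction of this pair is therefore uncertain. Rpl22, an RNA-binding large subunit protein, had 0 to 1173 counts in LCM libraries and 309, 421 and 429 in MII in vivo and 202, 240 and 156 in MII in vitro libraries.

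In the other pairs the second gene was a minor part in LCM oocytes. Rps4l held at most 1.09% of the TPM of its pair with Rps4x in LCM oocytes and 79.7% to 96.8% in MII oocytes, at 25 to 110 counts against 3 to 21 for Rps4x. Rps4l is annotated as a transcribed processed pseudogene, and a gene lies across it on the opposite strand. Rpl36al held 0.00239% to 34.4% of its pair with Rpl36a in LCM oocytes and 62.0% to 100% in MII oocytes, at 2 to 29 counts. Rpl7l1 exceeded Rpl7 in TPM in 1 of 12 LCM libraries (1324 against 235 counts in primordial in vitro replicate 3) and in 5 of 6 MII libraries, at 0 to 18 counts. Rpl10l, an autosomal retrogene of the X-linked Rpl10 that is used in male meiosis, held at most 4.67% of its pair in LCM oocytes and had counts in 1 MII library (8). Rpl3l, known from heart and skeletal muscle, had counts in 1 LCM library (23) and in no MII library. At these low MII counts, shares of Rpl36al, Rpl7l1 and Rpl10l rest on few reads.

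**Figure D4:**
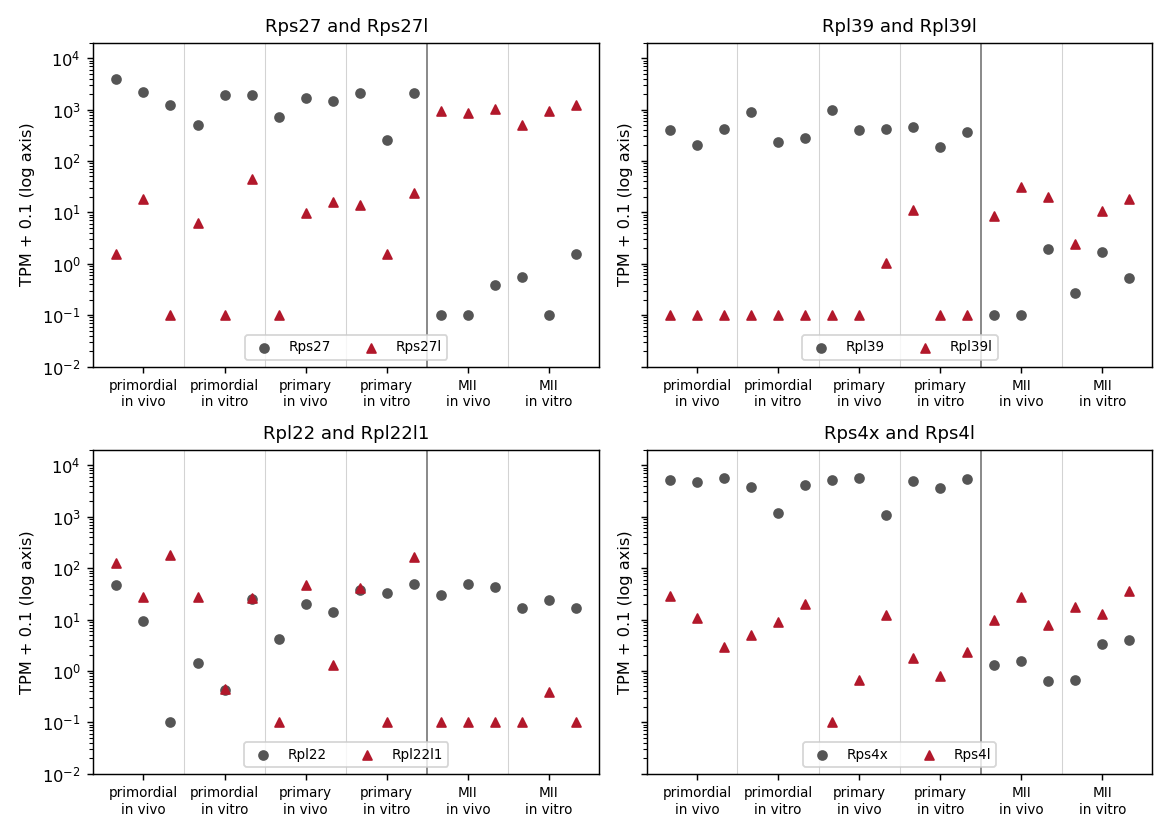
TPM + 0.1 (log axis) of 4 paralog pairs in each of the 18 libraries, 3 in each group, with the first gene as circles and the second as triangles; symbols at 0.1 are libraries with no count. The triangles of Rps27l, Rpl39l and Rps4l lie above the circles in all 6 MII libraries and below them in all 12 LCM libraries, and those of Rpl22l1, without its copy Gm15421, fall to 0.1 in 5 of 6 MII libraries.

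Reads of ribosomal protein mRNAs can also be placed on pseudogenes. A coding sequence at least 95% identical over at least 80% of its length to a member was found in 536 annotated pseudogenes. Of these, 510 are in the count table. Counting such copies in genes of any annotated kind, 77 of the 87 genes had at least 1, up to 57 for Rpl21. Pseudogene copies took 0.353% to 4.02% of the reads on members and these copies in LCM oocytes, against 13.4% to 20.6% in MII oocytes. Besides Gm15421, Gm14231, a copy of Rpl9, had 24 to 125 counts in MII libraries against 0 to 5 for Rpl9. Levels of members with copies are therefore uncertain. How reads with several matches were treated is not stated, and the part of the copies in these levels was not tested. Over the 87 genes the number of copies of any kind had a Spearman's rho of 0.218 with mean TPM in LCM and of -0.0264 in MII oocytes. Further, 29 members have a small nucleolar RNA gene inside them and 25 overlap a gene on the opposite strand.

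The first comparison set in vitro against in vivo MII oocytes, which differ in culture, in the age of the mice and in how ovulation was induced. Genes were called at a fold change of at least 2 and an adjusted p (Benjamini-Hochberg) under 0.05 in edgeR's quasi-likelihood test. By this rule 0 of the 78 members tested were called, while 60 of 17144 genes were (0.35%). The other 9 members had under 10 counts in the 6 libraries together and were not tested (Rpl3l, Rpl6l, Rpl9, Rpl10l, Rpl12, Rpl22l1, Rpl32l, Rps12l1 and Rps27). At an unadjusted p under 0.05 stood 4 members, among them Rpl7a, Rps15a and Rpl22, against 10.2% of all genes, and DESeq2 called 1 member, Rpl7a, against 2.28% of all genes. The median log2 fold change of the members was -0.44 in vitro over in vivo, against 0.04 over all genes, with 20 members above 0 and 58 below (25.6% above 0, against 51.7% of all genes). This median was less than the spread of 0.61 (SD) between libraries of a group in the median member level.

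Rpl7a, a large subunit protein, had 0, 10 and 0 counts in the 3 in vivo libraries and 219, 135 and 148 in the 3 in vitro libraries, so that the groups did not overlap. Its mean was 0.4001 ± 0.693 CPM (SD, n = 3) in vivo and 18.2 ± 6.48 CPM (SD, n = 3) in vitro. The log2 fold change was 5.50 (SE 1.10; 4.90 to 10.40 when single libraries were left out), with an adjusted p of 0.0612 in edgeR and of 5.07e-06 in DESeq2, so the call depended on the tool. The value of 10.40 (adjusted p 0.00375 in edgeR) was that without MII in vivo replicate 2, where both in vivo libraries left are at 0 counts and the fitted value is no bound. Of its 31 near-identical copies, Gm5619 had 0 counts in all 3 in vivo libraries and 62, 25 and 22 in vitro, and Rpl7a-ps10 had 0 in vivo and 12, 20 and 13 in vitro. These copies were higher in the same libraries as Rpl7a, and neither was called by edgeR (adjusted p of 0.105 and 0.367). A further copy, Gm11989, had 0, 0 and 4 counts in vivo and 10, 1 and 6 in vitro. Its groups overlapped (adjusted p 0.794 in edgeR). By DESeq2, Gm5619 passed (log2 fold change 7.57, adjusted p 0.00128) and Rpl7a-ps10 did not (adjusted p 0.110). The call of Gm5619 thus depended on the tool, as did that of Rpl7a. In the LCM libraries Rpl7a had 366 to 5379 counts, and Gm5619 had none.

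Rps15a, a small subunit protein, had 288, 727 and 687 counts in vivo and 108, 284 and 251 in vitro, with no overlap. Its log2 fold change was -1.51 (SE 0.46), with an adjusted p of 0.273. Rpl22 had a log2 fold change of -1.05 (SE 0.39), also with no overlap and with an adjusted p of 0.403. Without MII in vivo replicate 1, 3 members were called, among them Rpl7a (4.94, adjusted p 0.0425 in edgeR) and Rps15a (-1.81, adjusted p 0.0450). With all genes kept that have 1 count or more in total, 3 members were called with all libraries in, again with Rpl7a and Rps15a among them. Groups did not overlap for 2 members that were higher in vitro (Rpl7a and Rps9, against 9.37% of all genes) and 5 that were lower (Rps15a, Rpl22, Rpl14, Rpl28 and Rpl27a, against 6.81% of all genes). These are 7 of 78 members, a share below the background of all genes. Rps9 was near the floor, with 1, 2 and 0 counts in vivo and 3, 4 and 9 in vitro.

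**Figure D5:**
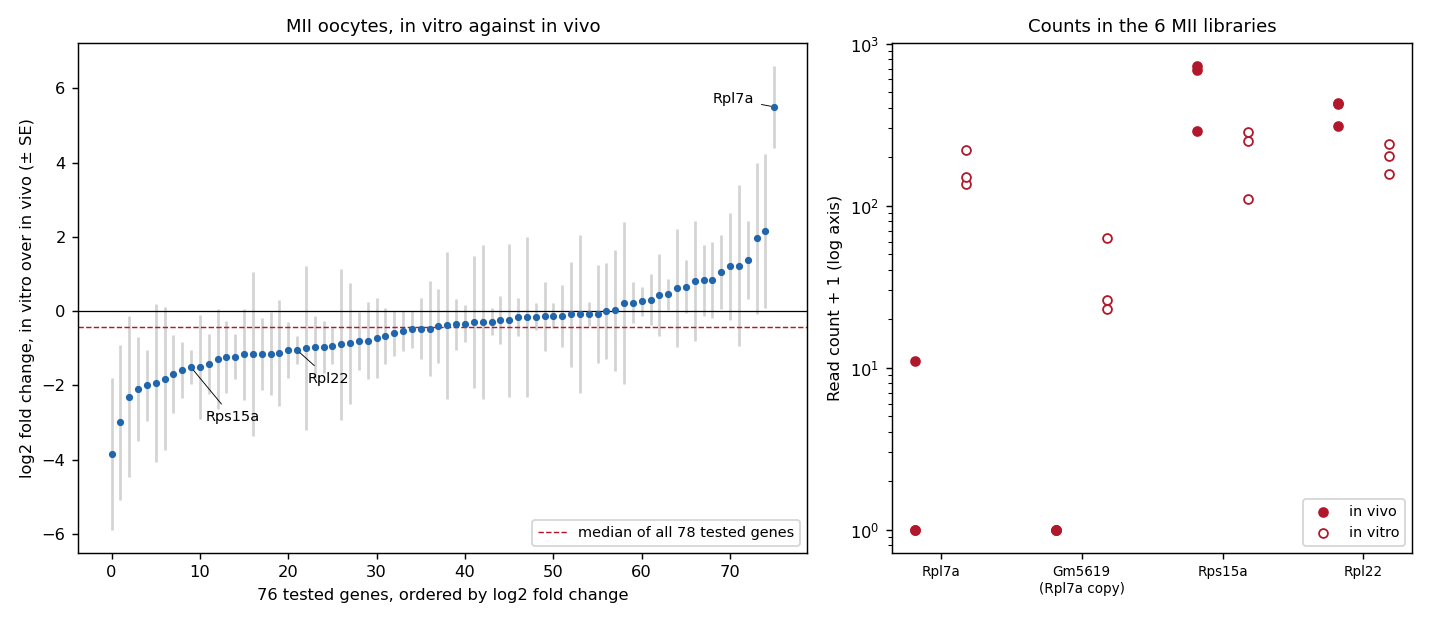
Left, log2 fold change in vitro over in vivo (± SE) of 76 of the 78 tested genes in MII oocytes, in order of size, with the median of -0.44 of all 78 dashed; right, counts + 1 (log axis) of 3 members and 1 copy in the 3 in vivo (filled) and 3 in vitro (open) libraries. Rpl7a and its copy Gm5619 are higher in every in vitro library, and Rps15a and Rpl22 are lower in every in vitro library.

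In oocytes of primordial follicles, 0 of 86 members tested were called in vitro against in vivo by edgeR, with 5 of 15317 genes called (0.0326%). Only Rps12l1, with 7 counts in all 12 LCM libraries together, was not tested. DESeq2 called no member and 9.3% of all genes, and 1 member had an unadjusted p under 0.05, against 11.7% of all genes. The median log2 fold change of the members was 0.04, against 0 for all genes. The 3 smallest p-values belonged to Rpl6l (0, 0 and 0 counts in vivo; 0, 234 and 0 in vitro; adjusted p 0.359), Rpl3l (0, 23 and 0 in vivo, none in vitro; adjusted p 0.451) and Rpl37 (4810, 1241 and 1720 in vivo; 19864, 76 and 7835 in vitro; adjusted p 0.587). The first 2 rest on reads of 1 library, and the groups of Rpl37 overlapped. Groups did not overlap for 1 member that was higher in vitro, Rpl24 (2.04% of all genes), and 3 that were lower, Rps14, Rps25 and Rpl8 (4.55% of all genes).

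In oocytes of primary follicles, 0 of 86 members were called by edgeR (0% of all genes) and 0 by DESeq2 (2.86% of all genes), and 1 had an unadjusted p under 0.05 (9.66% of all genes). The median log2 fold change was 0.34, against 0.44 for all genes. The 3 smallest p-values belonged to Rpl32l (123, 0 and 0 counts in vivo, none in vitro; adjusted p 0.440), Rpl36a (122563, 13541 and 7 in vivo; 9617, 16543 and 21152 in vitro; adjusted p 0.593) and Rpl10l (0, 9 and 0 in vivo; 173, 0 and 0 in vitro; adjusted p 0.804). In vivo counts of Rpl36a spanned the in vitro ones on both sides. Groups did not overlap for 6 members that were higher in vitro, Rps27a, Rpl6, Rpl22, Rpl15, Rpl28 and Rps16 (8.74% of all genes), and 3 that were lower, Rpl37 and Rpl39 among them (1.25% of all genes). None of these 9 passed the test.

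The difference between the 2 culture effects (primary minus primordial) was called for 0 of 86 members by edgeR, with 16 genes called in all (0.104%), and for 0 by DESeq2 (6.24% of all genes). No member had an unadjusted p under 0.05, against 11.5% of all genes. The median log2 difference of the members was 0.09, against 0.91 for all genes. The 3 smallest p-values belonged to Rpl37 (log2 difference -3.61, SE 2.51, adjusted p 0.669), Rpl29 (-3.78, SE 2.80, adjusted p 0.716) and Rps23 (-2.83, SE 2.47, adjusted p 0.823).

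Primary against primordial oocytes in vivo gave 0 of 86 members called by edgeR (0.0522% of all genes) and 0 by DESeq2 (6.42% of all genes), with no member at an unadjusted p under 0.05 (11.2% of all genes). The median log2 fold change was -0.14, against 0 for all genes. Rpl32l, Rpl3l and Rpl29 had the smallest p-values (adjusted p 0.453, 0.474 and 0.519), and Rpl29, a large subunit protein, had 41, 4232 and 23 counts in primordial and 18228, 9022 and 1283 in primary oocytes. Its groups overlapped. Groups did not overlap for 3 members that were higher in primary oocytes, Rpl37 and Rpl24 among them (2.36% of all genes), and 2 that were lower, Rpl10l and Rps3 (4.02% of all genes).

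Primary against primordial oocytes in vitro gave 0 of 86 members called by edgeR (0% of all genes) and 0 by DESeq2 (5.32% of all genes), with 2 members at an unadjusted p under 0.05, Rpl6l and Rpl39l (10.9% of all genes). The median log2 fold change was 0.04, against 0.44 for all genes. Rpl6l had no count in primary oocytes (adjusted p 0.384), Rpl39l had 62, 0 and 0 counts in primary and 0 in all primordial libraries (adjusted p 0.442), and Rps14 had 96, 1991 and 141 counts in primordial and 2366, 9733 and 8125 in primary oocytes (log2 fold change 3.10, SE 2.40, adjusted p 0.666), with no overlap. Groups did not overlap for 5 members that were higher in primary oocytes, Rps14, Rplp1, Rpl22, Rps25 and Rps6 (9.87% of all genes), and 2 that were lower, Rps4l and Rpl36 (1.34% of all genes). These comparisons share libraries: each in vitro and in vivo group of LCM oocytes enters 2 of them and the difference. The biological coefficient of variation was 2.02 in the LCM model, against 0.726 in the MII model. Changes of several fold in single genes could therefore be missed in LCM oocytes at this number of libraries.

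Other genes of the ribosome and of its control were described from lists. Of 5 tested ribosomal proteins with other symbols, 39 tested genes of ribosome assembly and RNA polymerase I (38 in MII), 16 other mRNAs with a TOP start and 12 tested genes of mTORC1 and Larp1 (11 in MII), 0 were called in either direction in any of the 6 comparisons by edgeR. In MII oocytes the median log2 fold changes were 0.03, 0.04, -0.17 and 0.16 for the 4 lists in this order, with 3 of 5, 19 of 38, 4 of 16 and 6 of 11 genes above 0. In MII, 2 of the 11 genes of mTORC1 and Larp1 and none of the other lists had an unadjusted p under 0.05, against 10.2% of all genes. They were Tsc2 (-1.21, adjusted p 0.387) and Mtor (-0.97, adjusted p 0.474), the kinase of mTORC1. Both were lower in vitro with no overlap, which held for 6.81% of all genes. Some genes of ribosome assembly had such p-values in each LCM comparison. So did a gene of mTORC1 and Larp1 in primary against primordial oocytes in vitro. In primordial oocytes the medians were -0.31, 0.36, -0.20 and 0.48, and in primary oocytes 0.33, 0.30, 0.44 and 0.43, each against the 0 and 0.44 of all genes. For the stage comparison the medians were -0.52, -0.28, -0.45 and 0.06 in vivo and -0.20, -0.15, 0.19 and 0.17 in vitro, and for the difference between the culture effects 0.56, 0.16, 0.56 and 0.43, against 0.91 for all genes.

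The other TOP mRNAs did not all follow the ribosomal protein genes in level. Eef1a1, the elongation factor that brings aminoacyl-tRNA to the ribosome, had a mean of 3981 TPM in LCM and 30.5 TPM in MII oocytes, and Pabpc1, the poly(A)-binding protein, 1189 and 4.96 TPM. Npm1, a nucleolar chaperone, had 825 and 636 TPM, and Tpt1 25.1 and 196 TPM.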

How the data were processed

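The authors ran Trim Galore 0.4.1, then TopHat2 against mm10, then featureCounts per gene; the deposited read counts are not normalized, and the deposited TPM values were normalized by the authors for gene length and library size. Strand and multi-mapping settings are not given in the sources used here. Groups come from the sample labels. Members and lists were chosen with earlier results of these data known. Counts were tested with edgeR 4.0.16 (R 4.3.3; TMM, robust quasi-likelihood, at least 10 counts in total, adjustment over all genes), in 1 model of 12 LCM and 1 of 6 MII libraries; the script was tested on simulated data. CPM values are after TMM, except marker sums, which use library totals. DESeq2 1.42.0 (the authors' tool) and limma 3.58.1 on log2(TPM + 1) and log2(TPM + 0.1) were alternatives. Genes were named by rule: the 5 highest and 3 lowest by mean TPM in LCM and MII oocytes, the 3 smallest p per comparison, paralog pairs, and members with known roles; others were named after their values were seen. Some genes that this rule names are not reported here, though they count in all totals. Copies were found with blastn against GENCODE M21 transcripts. No column was left unmapped. The 53715 count rows all name a gene.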

Additional observations from a re-analysis of the deposited data

How the results depend on the processing

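Library replicate numbers showed no sign of pairing. Deviations of same-numbered libraries from their group means correlated between -0.0662 and 0.0897 (18 LCM pairs) and between -0.0241 and 0.0159 (3 MII pairs). With so few libraries in a group, this check could miss a weak pairing. With the replicate block, 1 member was called in MII oocytes (Rpl7a, adjusted p 0.0175) and 0 in the 5 LCM comparisons. In all 5 LCM comparisons, 0 members were called under every alternative run. In MII oocytes, the count of called members was 1 with DESeq2, 1 with limma on log2(TPM + 1), 1 with limma on log2(TPM + 0.1), 3 without a low-count filter, and 0 to 3 when single libraries were left out; the cause was not tested. The MII median stayed below 0 when single libraries were left out (-0.77 to -0.26). The median in primary oocytes in vitro against in vivo was 0.90 and 0.95 with limma on log2(TPM + 1) and log2(TPM + 0.1), that of the difference between the culture effects 1.08 and 1.19 (and -0.019 to 0.56 without single libraries, the highest without primary in vivo replicate 2), and that of the stages in vitro 0.56 and 0.58 (0.42 with library size alone). The median of the stages in vivo was -0.64 with limma on log2(TPM + 0.1). The other 109 medians under an alternative moved by less than the spread between libraries, though the LCM medians nearest 0 changed sign in some. As a percent of TPM, the mean share was 7.63% and 8.24% in primordial, 7.45% and 9.22% in primary, and 0.239% and 0.182% in MII oocytes (in vivo and in vitro); without the paralogs the MII in vitro share was 0.0640%. The other 29 alternative shares and 28 alternative numbers of members detected moved by less than 1 SD. Counting genes with 1 count or more, or with 10 or more, gave 77 and 52 members in MII in vitro oocytes. The number of members lost from a primary in vivo library was 4 without replicate 1, a setting chosen after seeing the data.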
